A study of Homo sapiens with 42 samples.

Results

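Open chromatin was compared between 22RV1, a human prostate adenocarcinoma line, and HCT116, a human colorectal cancer line, using the 3 DMSO samples of each, which are 6 of the 42 ATAC-seq samples of the series. Members were the intervals present in all 3 lists of 1 line and in none of the other: 30451 regions were found only in 22RV1 and 4004 only in HCT116, together 34455 of the 844858 regions with a peak in any of the 6 lists. Both lines are labelled WT and both groups were kept for 4 h in DMSO, the solvent control of the series. The series treated 7 cancer lines with DMSO or FHT-1015, which blocks SMARCA4 and SMARCA2, the motor subunits of BAF chromatin remodellers, in 3 biological replicates per group. Each line stands for its tissue by 1 established tumour line, and whether the replicates came from separate cultures is not stated, so the p-values measure only the spread between these samples. The peak names of both lines carry the word small, which the labels do not explain.

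ATAC-seq uses a transposase to cut DNA that nucleosomes leave free, so that peaks mark promoters, enhancers and insulators. In prostate luminal cells the pioneer factor FOXA1 opens enhancers of genes such as KLK2 and KLK3. In intestinal epithelium the homeobox factor CDX2 and the nuclear receptor HNF4A hold the enterocyte programme, and WNT signalling through TCF and beta-catenin maintains the crypt. AP-1 dimers of FOS and JUN proteins open enhancers together with the TEAD partners of YAP in many carcinoma lines. Some factors and enzymes are shared by liver and gut and also occur in prostate cancers with a gastrointestinal expression pattern.

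The promoters below show the kind of sequence that was open in 1 line and listed in no sample of the other. Each is the stretch of 250 bases before the RefSeq gene start (GRCh38.p14), written 5′ to 3′ on the strand of the gene, and capitals mark matches to any of 11 short words searched on both strands. The first pair was open only in 22RV1 and is shown because both hold the FOX word TGTTTAC, on the opposite strand in UGT2B15: UGT2B15 encodes an androgen-glucuronidating enzyme, and SPAG16, a cilium gene, was among the strongest starts of that line.
UGT2B15 promoter, chr4:68670653-68670902, minus strand: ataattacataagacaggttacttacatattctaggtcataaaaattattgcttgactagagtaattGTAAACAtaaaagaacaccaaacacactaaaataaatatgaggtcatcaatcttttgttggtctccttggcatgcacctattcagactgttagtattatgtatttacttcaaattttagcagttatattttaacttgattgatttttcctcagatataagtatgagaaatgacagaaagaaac
SPAG16 promoter, chr2:213284214-213284463, plus strand: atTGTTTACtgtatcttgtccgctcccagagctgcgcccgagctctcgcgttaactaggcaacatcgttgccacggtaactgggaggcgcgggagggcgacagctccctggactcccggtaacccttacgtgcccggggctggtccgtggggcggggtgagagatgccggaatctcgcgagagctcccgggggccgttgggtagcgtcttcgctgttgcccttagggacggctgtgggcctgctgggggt

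The other 4 were open only in HCT116. The promoter of CDX2 is shown as that of the colon marker, with the CDX word TTTATNG, the FOX word and a match to AGATAA, the word of the GATA factors. Those of TTC39C, a tetratricopeptide repeat gene, NIBAN2, a gene of the Niban family, and CPA4, which encodes a carboxypeptidase, are shown because each holds 2 copies of the AP-1 word TGANTCA, which reads the same on both strands.
CDX2 promoter, chr13:27969316-27969565, minus strand: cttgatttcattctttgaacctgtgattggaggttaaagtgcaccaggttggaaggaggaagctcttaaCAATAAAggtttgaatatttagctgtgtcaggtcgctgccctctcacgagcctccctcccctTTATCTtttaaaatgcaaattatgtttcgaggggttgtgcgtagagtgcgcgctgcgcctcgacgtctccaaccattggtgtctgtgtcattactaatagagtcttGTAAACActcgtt
TTC39C promoter, chr18:24113077-24113326, plus strand: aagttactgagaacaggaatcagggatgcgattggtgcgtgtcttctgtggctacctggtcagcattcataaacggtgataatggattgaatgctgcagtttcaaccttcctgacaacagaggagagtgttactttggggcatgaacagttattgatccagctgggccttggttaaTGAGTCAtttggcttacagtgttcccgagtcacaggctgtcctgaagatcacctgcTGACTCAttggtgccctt
NIBAN2 promoter, chr9:127579032-127579281, minus strand: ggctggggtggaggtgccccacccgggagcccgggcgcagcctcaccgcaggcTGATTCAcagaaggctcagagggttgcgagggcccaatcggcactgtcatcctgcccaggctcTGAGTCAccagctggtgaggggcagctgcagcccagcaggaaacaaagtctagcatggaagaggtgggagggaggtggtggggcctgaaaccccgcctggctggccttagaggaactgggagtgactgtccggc
CPA4 promoter, chr7:130292911-130293160, plus strand: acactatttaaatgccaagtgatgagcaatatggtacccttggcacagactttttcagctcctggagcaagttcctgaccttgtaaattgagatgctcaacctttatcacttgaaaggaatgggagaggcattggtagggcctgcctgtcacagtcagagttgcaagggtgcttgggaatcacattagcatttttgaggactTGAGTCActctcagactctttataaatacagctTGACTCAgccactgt

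The lists of the 2 lines differed in depth and quality before any locus was compared. The 22RV1 DMSO samples held 331713, 297640 and 240484 peaks and the HCT116 DMSO samples 122344, 267413 and 224200 peaks, so the numbers overlapped (log2 difference 0.56, exact permutation p = 0.2, two-sided). Peaks with −log10 q of at least 5, called strict peaks here, numbered 67852 ± 10523 (SD, n = 3) in 22RV1 and 24275 ± 1526 in HCT116, with no overlap (log2 difference 1.47, exact permutation p = 0.1, the smallest that 3 against 3 samples allow). The background pileup recovered from the fold and p of the peaks, a stand-in for depth, was 0.633 ± 0.0889 in 22RV1 and 0.227 ± 0.0632 in HCT116, 2.79-fold apart (exact permutation p = 0.1). Depth and line therefore cannot be told apart in numbers of peaks. With every pileup thinned to the same background, the samples of 22RV1 kept 21306, 30990 and 31058 peaks and those of HCT116 35141, 26178 and 29033, and the difference changed sign (log2 −0.13, exact permutation p = 0.7).

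**Figure D1:**
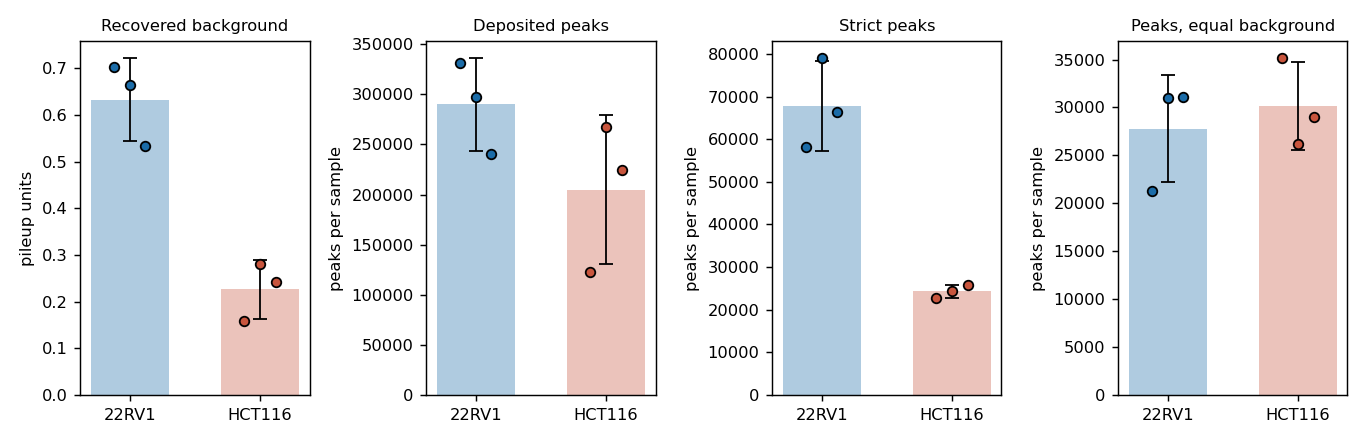
Bars give the mean, error bars the SD and points the 3 DMSO samples of each line, for the recovered background pileup, the deposited peaks, the strict peaks and the peaks left at equal background. Background and strict peaks of the lines did not overlap, while deposited peaks and peaks at equal background did.

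Other properties of the lists were compared at equal rank. Among the 10000 strongest peaks of each sample, the median width was 476, 477 and 481 bp in 22RV1 and 371, 393 and 401 bp in HCT116 (exact permutation p = 0.1). All 22RV1 values were above all HCT116 values. Of the same peaks, 50.4 ± 0.203% lay within 1 kb of the start of a protein-coding gene in 22RV1 and 53.1 ± 1.12% in HCT116, without overlap. Of the strict peaks, 25.3 ± 2.64% did in 22RV1 and 38.7 ± 1.43% in HCT116 (exact permutation p = 0.1). Gene starts thus made up a smaller share of the longer strict lists of 22RV1 than of those of HCT116.

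Replicates of a line resembled each other more than the other line did once weak peaks were left out. The Jaccard index was the number of regions with a peak in both samples over the number with a peak in either. For strict peaks it was 0.521 to 0.561 within 22RV1, 0.459 to 0.481 within HCT116 and 0.2 to 0.253 between the lines. With all deposited peaks it was 0.23 to 0.261 within 22RV1 but 0.128 to 0.142 within HCT116, which met the range between the lines of 0.11 to 0.131. Weak HCT116 peaks were therefore hardly more alike between replicates than between lines. No pair of samples shared more than 0.254% identical intervals.

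Regions are windows of 500 bp around summits, and a peak covering at least 100 bp of a window called it in that sample. Those only in 22RV1 were 3.6% of the 844858 regions and those only in HCT116 0.474%, while 20467 regions (2.42%) had a peak in all 6 samples. Just outside the rule lay 12412 regions with 3 samples of 22RV1 and 1 of HCT116, 54640 with 2 and none, 2545 with 1 sample of 22RV1 and 3 of HCT116, and 19847 with none and 2. A firm subset, with strict peaks in all 3 samples of a line and no deposited peak in the other, held 11539 regions of 22RV1 (1.37%) and 794 of HCT116 (0.094%). At equal background 2978 regions (0.352%) were only in 22RV1 and 1284 (0.152%) only in HCT116. Presence and absence were both read in the thinned lists there, so such a region may have a deposited peak in the other line. HCT116 thus supplied 11.6% of the line-only regions as deposited and 30.1% at equal background.

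**Figure D2:**
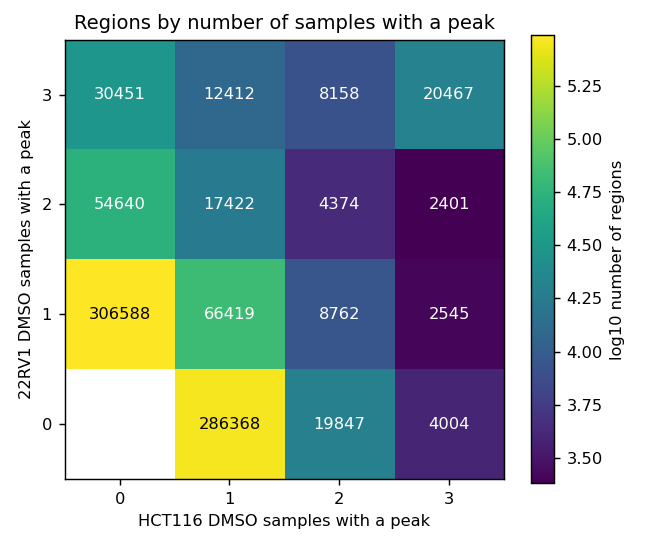
Number of regions by how many 22RV1 DMSO samples (vertical axis) and HCT116 DMSO samples (horizontal axis) had a peak there, with colour on a log10 scale. The 30451 regions only in 22RV1 are at the upper left, the 4004 only in HCT116 at the lower right and the 20467 shared by all 6 samples at the upper right.

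The line-only regions were distal more often than the shared ones. Of the shared regions, 47.8% lay within 1 kb of a gene start, against 7.18% of the 22RV1-only, 4.17% of the HCT116-only and 3.54% of all regions. The median distance to a start was 1.61 kb for shared regions, 65.0 kb for 22RV1-only and 45.4 kb for HCT116-only regions. Inside a gene lay 47.5% of the 22RV1-only and 50.7% of the HCT116-only regions, close to the 47.3% of all regions. At equal background the near-start shares of the line-only sets were 19.9% and 15.7%.

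The line-only sets were followed in samples that had not been used to choose them, the FHT-1015 samples of the same lines. A peak lay in 42.1 ± 1.94% (SD, n = 3) of the 22RV1-only regions in the treated 22RV1 samples and in 9.25 ± 3.7% in the treated HCT116 samples. Of all regions, 17.7 ± 1.73% had a peak in treated 22RV1 and 10.1 ± 3.25% in treated HCT116. The difference was 32.8 percentage points, with no overlap (exact permutation p = 0.1). Of the HCT116-only regions, 15.6 ± 1.91% had a peak in treated 22RV1 and 51.1 ± 4.77% in treated HCT116 (difference −35.4 points for 22RV1 minus HCT116, exact permutation p = 0.1). Both sets were thus found more often in the treated samples of their own line, and in those of the other line about as often as any region. In the firm subsets the own-line shares were 57.6 ± 2.27% for 22RV1 and 80.2 ± 5.53% for HCT116. In the equal-background sets they were 82.7 ± 1.43% and 89.1 ± 3.62%. Of those sets, 27.0 ± 2.99% of the 22RV1-only regions had a peak in treated HCT116. In treated 22RV1, 48.1 ± 1.61% of the HCT116-only ones did, so both shares in the other line were above those of all regions. Treatment and replicate noise cannot be told apart in the regions that were missing, since the treated samples differ from the DMSO samples by the inhibitor.

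Among the DMSO samples themselves, leaving 1 sample out of the rule gave a direct measure of how often a line-only region recurs. Regions found in 2 of 2 samples of 22RV1 and in no HCT116 sample recurred in the left-out 22RV1 sample in 63.9%, 66.8% and 57.7% of cases. For HCT116 the recurrence was 27.5%, 48.2% and 44.6%, the lowest being in HCT116 replicate 1, which had the lowest background. Of all regions, 34.3%, 30.5% and 24.7% had a peak in the left-out sample of 22RV1 and 13.0%, 28.5% and 24.0% in that of HCT116. Of the 844858 regions, 306588 had a peak in 1 sample of 22RV1 alone and 286368 in 1 sample of HCT116 alone. The shares of all regions are therefore no like measure for regions already found in 2 of 2 samples. Regions of the other line were found in the left-out sample in 13.8% to 19.6% of cases for 22RV1 and in 7.86% to 14.9% for HCT116.

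The HCT116-only regions were shared with A375, a cutaneous melanoma line of the same series, more often than with any of the other 4 lines. A peak lay in 55.8 ± 5.17% of them (50.1% to 60.2%) in the A375 DMSO samples, against 35.4 ± 1.71% in MV411 (acute myeloid leukaemia), 31.9 ± 1.24% in RD (rhabdomyosarcoma), 27.2 ± 2.23% in DU4475 (breast carcinoma) and 26.1 ± 5.0% in 92-1 (uveal melanoma). The A375 samples lay above all samples of the other 4 lines. In the 22RV1-only regions A375 had no such place, with 17.5 ± 2.72% against 16.8% to 23.4% in the other lines. Of all regions, 10.7 ± 1.48% had a peak in A375 and 11.2% to 14.8% in the others. Among firm HCT116-only regions the A375 share was 72.9 ± 3.95%, and at equal background 72.7 ± 3.98%. The A375 samples held 26365 to 65602 strict peaks, within the range of the other lines.

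Counting a line when at least 2 of its 3 DMSO samples had a peak, 55.5% of the 22RV1-only regions (16901) and 22.0% of the HCT116-only regions (880) were in none of the other 5 lines, against 74.6% of all 844858 regions. Of the HCT116-only regions, 586 were shared with A375 alone. In the firm subsets 50.6% of the 22RV1 regions and 9.57% of the HCT116 regions were in no other line, and at equal background 30.3% and 5.22%. Most regions that set HCT116 apart from 22RV1 were therefore open in some other line of the series.

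**Figure D3:**
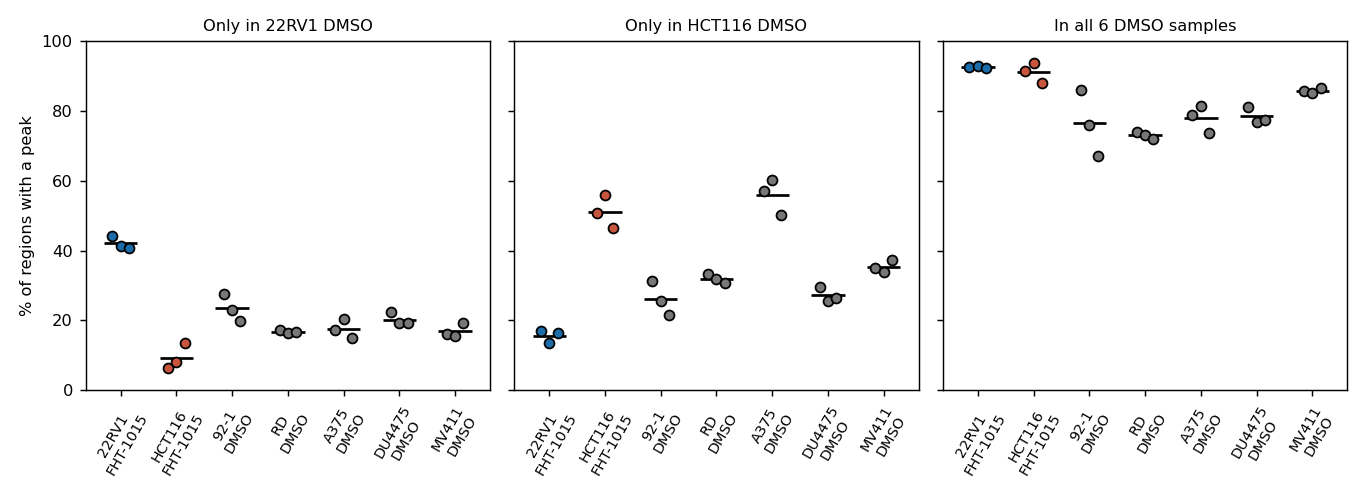
Percent of the regions with a peak in each sample that was not used to choose them, for regions only in 22RV1, only in HCT116 and in all 6 DMSO samples, with points for the 3 samples of a group and a bar at their mean. A375 DMSO lies between 50.1% and 60.2% for the HCT116-only regions.

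The marker of each tissue was looked at first. FOXA1 (chr14:37589552-37595249), the pioneer factor of prostate luminal cells, was nearest to no line-only region and its start had a peak in all 6 samples. Fold enrichment at the start, as the authors deposited it, was 5.53, 8.32 and 7.22 in 22RV1 and 5.30, 5.23 and 4.81 in HCT116. Folds of the lines come from lists of different depth, so here and below they are set side by side and not compared. Strict peaks were found at the start in 3 samples of 22RV1 and in none of HCT116. Within 50 kb of FOXA1, 4 of 28 regions were only in 22RV1 and none only in HCT116. The strongest of them, inside MIPOL1 at chr14:37544374-37544873, had folds of 5.29, 12.3 and 11.8 in 22RV1. None of the 4 was firm or remained at equal background, and strict peaks were more numerous in 22RV1 throughout. The presence of a peak at the start of the marker did not separate the lines.

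CDX2 (chr13:27960918-27969315, minus strand), the intestinal homeobox factor, carried an HCT116-only region over its start at chr13:27969058-27969557, with folds of 5.15, 3.97 and 8.28 in HCT116 and no peak in 22RV1. This region was not firm and was lost at equal background. The promoter of CDX2 is printed above. A weak peak of fold 2.34 lay within 1 kb of the start in 22RV1 replicate 2. At the other end of the gene, chr13:27960667-27961166 was a firm 22RV1-only region with folds of 12.7, 16.0 and 13.2, which remained at equal background. The region at chr13:27953790-27954289 was open in all 6 samples, with 22.3, 25.3 and 21.0 in 22RV1 and 7.44, 6.90 and 8.46 in HCT116. The colon marker therefore had a region of each line in the deposited lists, and at equal background the one of 22RV1 alone.

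Genes of the prostate luminal list had 22RV1-only regions more often than genes at large. Of 26 genes, 21 were nearest to at least 1 such region, against 46.5% of all 19970 protein-coding genes, and 4 to an HCT116-only region, against 14%. With firm regions the counts were 15 (all genes 27.2%) and 2 (all genes 3.49%). The median gene of the list had 2 more 22RV1-only than HCT116-only regions, where the median of all genes was 0. At equal background 5 genes of the list had a 22RV1-only region (all genes 11%) and 4 an HCT116-only one (all genes 5.56%), so both counts were above the shares of all genes. The median gene length of the list was 47.4 kb, against 24.2 kb for all genes, and long genes are nearest to more regions.

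KCNN2, a calcium-activated potassium channel gene, had 17 regions only in 22RV1 and 1 only in HCT116, and FOLH1, which encodes the prostate-specific membrane antigen, had 14 and none. The strongest FOLH1 region, chr11:49558292-49558791, lay 350 kb from the gene and had folds of 14.4, 20.1 and 19.7 in 22RV1. Another lay 0.524 kb from its start, inside the gene, with 7.86, 13.9 and 14.7, and peaks of fold 3.12 and 4.51 lay within 1 kb of the start in HCT116 replicates 2 and 3. Here either end of the gene stands for its start, as its strand was not in the table used. Both 22RV1 regions were firm and remained 22RV1-only at equal background. ACSL3, a fatty acid activating enzyme gene, had 10 regions only in 22RV1 and none only in HCT116. Its strongest, chr2:222796715-222797214, had folds of 15.7, 19.9 and 16.1.

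KLK2, an androgen-induced kallikrein gene, had a firm 22RV1-only region over its promoter at chr19:50872971-50873470, with 5.88, 7.65 and 9.54, and a peak of fold 3.68 lay within 1 kb of its start in HCT116 replicate 2. The KLK3 gene, which encodes prostate-specific antigen, had 1 22RV1-only region, which was not firm, at chr19:50850545-50851044, 4.12 kb from the gene, with weak folds of 4.10, 3.73 and 2.59. TMPRSS2, an androgen-regulated serine protease gene, had 3 regions only in 22RV1 and 1 only in HCT116, none of them firm. STEAP1, a prostate antigen gene, had 7 and none, and PMEPA1, an androgen-induced TGF-beta regulator gene, 5 and none. Within 25 kb of STEAP1 and of PMEPA1 lay 1 22RV1-only region each. At equal background STEAP1 and PMEPA1 each had no region only in 22RV1 and 1 only in HCT116.

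Other defining genes of the prostate list were nearest to no line-only region. HOXB13, the homeobox factor of the prostate, had a peak at its start in 3 samples of 22RV1 and 2 of HCT116. FOXA1, HOXB13, SLC45A3, TRPM8 and NCAPD3 were the 5 genes of the list nearest to none. Within 25 kb, counting regions nearer to other genes too, FOXA1 and HOXB13 had 1 22RV1-only region each, SLC45A3 had 2, TRPM8 and NCAPD3 had none, and no HCT116-only region lay that close to any of the 5.

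The intestinal epithelium list had line-only regions about as often as genes at large, and firm ones more often. Of its 28 genes, 15 (53.6%, all genes 46.5%) had a region only in 22RV1 and 4 (14.3%, all genes 14%) a region only in HCT116. With firm regions the counts were 12 (42.9%, all genes 27.2%) and 3 (10.7%, all genes 3.49%), and at equal background 3 (10.7%, all genes 11%) and 2 (7.14%, all genes 5.56%). The median difference was 0. OLFM4, a crypt stem cell marker, and ISX, an intestine-specific homeobox gene, each had 10 regions only in 22RV1 and none only in HCT116. GUCY2C, the guanylin receptor, and VIL1, the brush border protein villin, had 5 each and none. The start of VIL1 had folds of 5.17, 6.74 and 9.94 in 22RV1 and no peak in HCT116. None of the regions of OLFM4 and ISX lay within 25 kb of the gene. At equal background OLFM4 had 1 region only in 22RV1, ISX 1 only in HCT116, and GUCY2C and VIL1 none of either kind. The whole 22RV1-only set fell from 30451 regions to 2978 at equal background, so losses at these 4 genes do not set them apart.

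HCT116-only regions of the intestinal list lay at 4 genes, CDX2 among them. EPHB2, a crypt receptor tyrosine kinase gene, had 3, against 1 only in 22RV1. One of these, chr1:22831966-22832465 inside the gene, was firm and had folds of 10.8, 13.0 and 7.36. It had a peak in all 3 FHT-1015 samples of HCT116, in all DMSO samples of A375 and MV411 and in no FHT-1015 sample of 22RV1. CDH17, an intestinal cadherin gene, had 1 and 1. KRT20, MUC2, MUC13, LGALS4, FABP1, TFF3, CEACAM5, CEACAM6, HNF4A, NOX1 and CDHR5, the markers of differentiated colon and its regulators, were among those with no line-only region of either kind.

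Genes of a list of liver and gut factors had regions of both lines more often than genes at large when regions went to their nearest gene. Of 13 genes, 10 (76.9%, all genes 46.5%) had a 22RV1-only region and 4 (30.8%, all genes 14%) an HCT116-only one. By firm regions 6 (46.2%, all genes 27.2%) and 2 (15.4%, all genes 3.49%) did. No gene had more HCT116-only than 22RV1-only regions and the median difference was 2. At equal background 5 genes (38.5%, all genes 11%) had a 22RV1-only and 2 (15.4%, all genes 5.56%) an HCT116-only region. Within 25 kb of the gene 11 of 13 had a 22RV1-only region (all genes 58.2%). Only 1 of 13 had an HCT116-only region that close (all genes 15.9%), so the HCT116 count was then not above that of genes at large. NR5A2, an orphan nuclear receptor of gut and liver, had 14 regions only in 22RV1 and 1 only in HCT116. FOXA2, a pioneer factor of endoderm, had 8 and 2, and its start had folds of 11.6, 18.7 and 13.6 in 22RV1 and no peak in HCT116. SPINK1, a secreted trypsin inhibitor gene expressed in some prostate cancers, had 3 and none, with start folds of 6.96, 3.79 and 4.21. The start of UGT2B15, printed above, had 7.18, 8.57 and 5.84 in 22RV1 and no peak in HCT116.

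WNT target genes carried regions of both lines. Of 18 genes, 13 (72.2%, all genes 46.5%) had a 22RV1-only region and 8 (44.4%, all genes 14%) an HCT116-only one. By firm regions 9 (50%, all genes 27.2%) and 3 (16.7%, all genes 3.49%) did, and at equal background 3 in each line (16.7%, all genes 11% and 5.56%). SOX9, a WNT-responsive crypt factor, had 12 regions only in 22RV1 and 9 only in HCT116, and 4 firm ones in each line. No gene had more firm HCT116 regions than SOX9 and STK39, with 4 each. The strongest HCT116 region near SOX9, chr17:71424118-71424617, lay 697 kb from the gene and had folds of 17.5, 13.6 and 11.6. It had a peak in all 3 FHT-1015 samples of HCT116, in all DMSO samples of A375 and DU4475 and in no FHT-1015 sample of 22RV1. The closest, chr17:72126487-72126986, was centred 0.321 kb from the gene and had 5.97, 10.1 and 8.14. The start of SOX9 was open in all 6 samples, at 13.9, 18.5 and 15.6 in 22RV1 and 21.5, 21.2 and 20.5 in HCT116.

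RNF43, a WNT feedback inhibitor gene, had 2 regions only in HCT116 and none only in 22RV1, neither of them firm. APCDD1, another WNT inhibitor gene, went the other way with 5 and none, and its start had folds of 7.66, 11.2 and 11.9 in 22RV1 and no peak in HCT116. LEF1, a TCF family factor gene, had 3 and 1, and AXIN2, a feedback scaffold gene, 3 and 2. Values that bear on SOX9 and RNF43 are the shares of all peaks in their 10 Mb bins. From 70 to 80 Mb of chromosome 17, HCT116 had 0.719 ± 0.110% of its peaks and 22RV1 0.454 ± 0.0188%, a ratio of 1.58, from 60 to 70 Mb the ratio was 1.73, and from 50 to 60 Mb it was 1.52. None of these shares overlapped between the lines, and the part of copy number or of mapping in the regions there was not tested.

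By nearest gene, YAP and TEAD genes had HCT116-only regions, whole or firm, most often among the lists examined. Of 18 genes, 13 had a 22RV1-only region and 11 an HCT116-only region, where 46.5% and 14% of all genes did. By firm regions 9 and 7 did, where 27.2% and 3.49% of all genes did. At equal background 3 genes of the list had a region of each kind (16.7%), fewer by share for HCT116 than in the skeletal muscle (25%) and myeloid (20%) lists. Within 25 kb of the gene 8 had an HCT116-only region, as did 10 of 22 epithelial genes, where 15.9% of all genes did. The genes of this list had a median length of 61.9 kb. AMOTL2, a YAP-binding angiomotin gene, had 3 regions only in HCT116 and 1 only in 22RV1, the strongest at chr3:134364019-134364518 with folds of 9.66, 7.32 and 14.9. F3, the tissue factor gene, had 2 and none. CCN2, a secreted matricellular YAP target, had 1 firm HCT116-only region at chr6:132063659-132064158 (8.46, 10.4 and 7.91) and 6 regions only in 22RV1. Another target, CCN1, had 1 firm region of each line, chr1:85607079-85607578 in HCT116 (9.74, 8.18 and 11.2) and chr1:85599176-85599675 in 22RV1 (12.3, 19.0 and 17.8). ANKRD1, a YAP-induced ankyrin repeat gene, was the single gene of the list with a start listed only in HCT116, at weak folds of 4.32, 3.08 and 3.22. CRIM1, a transmembrane BMP-binding protein gene, had 16 regions only in 22RV1 and 3 only in HCT116. Within 25 kb of it lay 4 and 3, and at equal background it had none only in 22RV1 and 1 only in HCT116. TGFB2, a TGF-beta ligand gene, had 10 and 1, the latter firm at chr1:218496524-218497023 (10.8, 14.3 and 13.3).

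Of the 12 AP-1 family genes, 7 (58.3%, all genes 46.5%) had a 22RV1-only region and 3 (25%, all genes 14%) an HCT116-only one, by firm regions 4 (33.3%, all genes 27.2%) and 1 (8.33%, all genes 3.49%). ATF3, a stress-induced member, had 6 and none. JUN had 2 and 3, with no firm region in HCT116. FOSL2 had a firm HCT116 region inside the gene, chr2:28409241-28409740, with 8.28, 6.98 and 7.56. FOSL1, which encodes FRA-1, had its start open in all 6 samples, at 5.64, 9.94 and 5.92 in 22RV1 and 11.9, 10.4 and 8.78 in HCT116. A peak at this start was thus common to both lines. FOSL1 was also nearest to 1 HCT116-only region, which was not firm, and to none only in 22RV1.

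Epithelial genes had HCT116-only regions more often than genes at large. Of 22 genes, 10 (45.5%, all genes 46.5%) had a 22RV1-only region and 8 (36.4%, all genes 14%) an HCT116-only one. By firm regions 4 (18.2%, all genes 27.2%) and 2 (9.09%, all genes 3.49%) did. At equal background 5 (22.7%, all genes 11%) and 2 (9.09%, all genes 5.56%) did, so both shares were then above those of all genes. Of the starts, 16 were open in all 6 samples. The start of CDH1, which encodes E-cadherin, had folds of 10.4, 14.9 and 16.3 in 22RV1 and 11.0, 8.70 and 15.2 in HCT116. RAB25, a GTPase gene of epithelial apical recycling, was open at its start only in HCT116, at chr1:156060843-156061342 with 9.23, 10.4 and 11.0, a firm region that remained at equal background. Of 12 mesenchymal genes, 11 (91.7%) had a 22RV1-only region and 6 (50%) an HCT116-only one, both above the shares of all genes. ZEB2, a repressor of E-cadherin, had 18 and 2, and CDH2, which encodes N-cadherin, 17 and 2. Within 25 kb ZEB2 had 6 regions only in 22RV1 and CDH2 3, and at equal background neither gene had any. VIM, the vimentin gene, had 2 of each, and its start was listed only in HCT116, with 8.44, 6.52 and 3.75.

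Genes of other lineages served as a comparison for the counts above. Among 10 basal and neuroendocrine genes 6 (60%, all genes 46.5%) had a 22RV1-only region and 3 (30%, all genes 14%) an HCT116-only one. INSM1, a zinc finger gene of neuroendocrine cells, had a firm region inside the gene with 15.8, 14.7 and 20.2. Of 7 melanocyte genes 6 (85.7%) had a 22RV1-only region, and all 6 had a firm one (all genes 27.2%), although neither line is melanocytic. TYRP1 had 12 and none and MITF 8 and none. None of the TYRP1 regions lay within 25 kb of the gene, and neither gene had a line-only region at equal background. For skeletal muscle the counts were 6 and 2 of 8 genes (75% and 25%). For the myeloid list they were 5 and 2 of 10 (50% and 20%), and for constitutive genes 2 and 1 of 10 (20% and 10%). As deposited, the share of genes with 22RV1-only regions was therefore above that of all genes in the melanocyte and muscle lists too. Neither line comes from these tissues. By firm regions the muscle list had 2 such genes (25%, all genes 27.2%). At equal background the melanocyte list had 1 (14.3%, all genes 11%) and the muscle list 0. The starts of all 10 constitutive genes were open in all 6 samples.

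**Figure D4:**
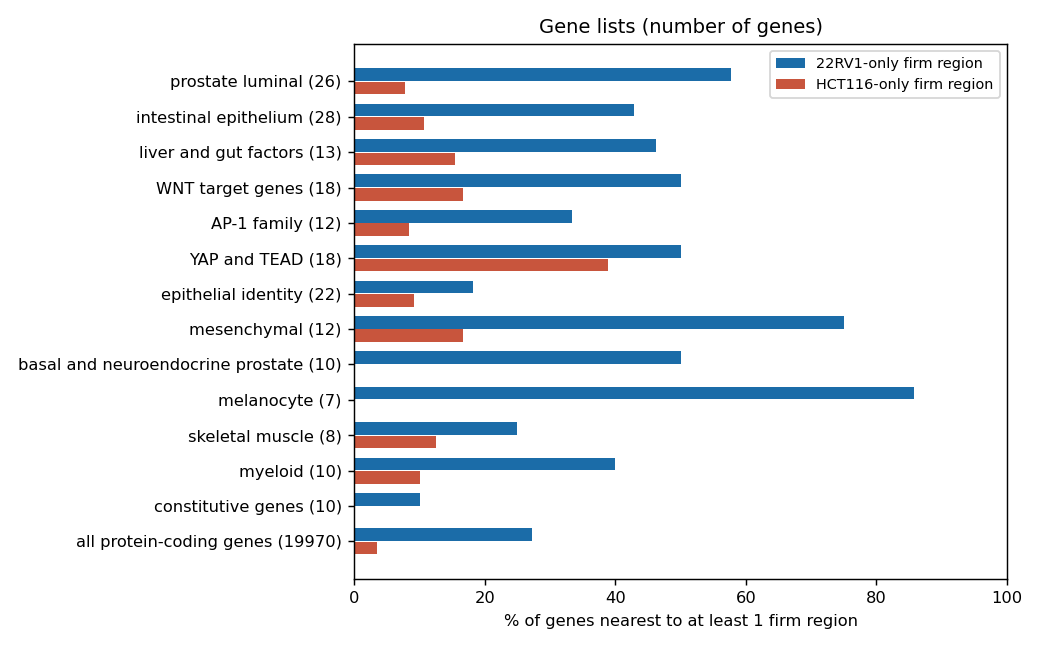
Percent of the genes of each list, and of all protein-coding genes, that are nearest to at least 1 firm region only in 22RV1 or only in HCT116, with the number of genes in brackets. The prostate list has 15 of 26 genes with a firm 22RV1 region, the melanocyte list 6 of 7, and the YAP and TEAD list 7 of 18 with a firm HCT116 region.

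Gene starts open in 1 line alone were few in HCT116. Of 19970 gene starts, 766 (3.84%) had a peak in all 22RV1 samples and none in HCT116, 50 (0.25%) the reverse, 10936 (54.8%) a peak in all 6 samples and 1798 (9%) in none. With strict peaks the line-only starts were 394 (1.97%) in 22RV1 and 10 (0.0501%) in HCT116. Among the 10 were those of TTC39C, RAB25, NIBAN2, ARHGAP40, ZNF655, TLX3, SP140L, SRPX2 and MACC1. TTC39C had folds of 10, 9.35 and 8.82 and NIBAN2 12, 6.62 and 12. MACC1, a gene named for its link to colon cancer metastasis, had 6.62, 6.49 and 5.76. TLX3, a homeobox gene of neurons, had 7.87, 8.41 and 5.98.

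The line-only starts of 22RV1 were led by TMEM30B, a flippase subunit gene, with folds of 26.9, 27.3 and 28.7. SPAG16, printed above, had 24.4, 29.4 and 25, DLX6, a distal-less homeobox gene, 19.6, 22.7 and 25.3, and PCSK2, a neuroendocrine prohormone convertase gene, 19.1, 27.6 and 22.8. Genes with symbols beginning ZNF, mostly zinc finger repressors, made up 42 of the 394 strict starts of 22RV1 (10.7%) and 49 of the 766 (6.40%), against 517 of all 19970 (2.59%) and 320 of the 10936 starts open in all 6 samples (2.93%). ZNF716 was one of them, with 23.8, 30.9 and 29.0. It lies on chromosome 7, whose share of peaks was higher in 22RV1, 7.78 ± 0.172% against 5.50 ± 0.152%, a ratio of 1.41.

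The firm regions of highest rank were taken by the lowest of the 3 within-list percentiles of −log10 p. In 22RV1 they were led by chr1:159867656-159868155 near CFAP45, a cilium gene, with folds of 33.9, 35.8 and 37.7, and chr14:79279019-79279518 inside NRXN3, a neurexin gene, with 28.6, 29.9 and 31.1. The CFAP45 region was in fewer than 2 samples of each of the other 5 lines, and the NRXN3 region was in 3 of 3 samples of A375, RD and 92-1. A region near ZNF736, chr7:64307136-64307635, had 24.3, 26.6 and 26.1. Near gene starts, SOD3, the extracellular superoxide dismutase gene, had 34.1, 32.8 and 32.1 at chr4:24795257-24795756. DNAH9, an axonemal dynein gene, had 26.2, 32.0 and 32.5 at chr17:11598145-11598644. TLE4, a Groucho corepressor gene, had 17.1, 19.2 and 18.4. These 3 start regions were not particular to 22RV1. That of TLE4 was in 3 of 3 DMSO samples of each of the other 5 lines. That of DNAH9 was in 3 of 3 of 92-1, RD, A375 and DU4475, and that of SOD3 in 3 of 3 of 92-1 and A375. The ZNF736 region was in 3 of 3 of A375 and MV411.

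In HCT116 the region of highest rank, chr5:134925624-134926123 inside PCBD2, had folds of 4.79, 4.78 and 4.81 only, and 2 near KCNJ18 on chromosome 17 had 3.37 to 3.7 and 3.05 to 3.25. Under the pileup model, folds that low at such a rank mean a high local background. The PCBD2 region was listed in all DMSO samples of the other 5 lines and in no 22RV1 sample of either treatment. The region with the highest folds among the leading ones, chr7:69331995-69332494, lay 266 kb from AUTS2, a neurodevelopmental gene, with 40.5, 36.6 and 38.8. It had a peak in 2 FHT-1015 samples of 22RV1 and in all DMSO samples of 92-1, RD, DU4475 and MV411, and in none of A375. Near gene starts the leaders were ARL14EPL (12.5, 13.5 and 12.7), RAB38, a GTPase gene of melanosome biogenesis (10.3, 17.1 and 12.2), CAVIN3, a caveolar coat gene (9.22, 12.8 and 13.4), TTC39C and RAB25. The regions of ARL14EPL, RAB38 and CAVIN3 were in 3 of 3 A375 samples, that of ARL14EPL also in 3 of 3 of MV411 and that of RAB38 also in 3 of 3 of 92-1 and DU4475. Of the firm HCT116 regions in no other line, the strongest lay inside AFAP1L2, an actin adaptor gene, at chr10:114320686-114321185, with 24.7, 13.8 and 15.9.

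By number of firm regions the leading genes of 22RV1 were CHRM3, a muscarinic receptor gene, with 29, AUTS2 with 26, PTPRD, a receptor phosphatase gene, with 25, and CNTNAP2, a neurexin family gene, and SOX11, a neural SOX factor gene, with 22 each. LSAMP had 20, CSMD1 and CSMD3 19 each, and NRG3 and GRM7 18 each. Most of them are long: CNTNAP2 spans 2304 kb and PTPRD 2299 kb. SOX11 is short, at 9.0 kb, and while 41 regions only in 22RV1 were nearest to it, 4 lay within 25 kb of it. In HCT116, SOX9 and STK39, a stress kinase gene, had 4 each. SLC39A11, TRIB1, PRKCA, CTBP2, KCNJ18, RPTOR, TPRG1, TGFBI and PITPNC1 had 3 each. Of these, SOX9, SLC39A11, PRKCA, KCNJ18, RPTOR and PITPNC1 lie on chromosome 17, which held 3.82 ± 0.306% of the peaks of HCT116 and 3.04 ± 0.154% of those of 22RV1.

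The distribution of all peaks over the genome differed between the lines. On 10 of 23 chromosomes (43.5%) the share of peaks did not overlap, and with strict peaks on 17 (73.9%). The share of 22RV1 over that of HCT116 was 1.41 on chromosome 7 and 1.32 on chromosome 12, and 0.796 on chromosome 2 and 0.798 on chromosome 17. Of 290 bins of 10 Mb, 83 (28.6%) had a higher share in 22RV1 and 71 (24.5%) in HCT116 without overlap. The furthest bin was 160 to 170 Mb of chromosome 2, with 0.101 ± 0.00391% of the peaks in 22RV1 and 0.380 ± 0.00616% in HCT116, a ratio of 3.76. STK39 lies there. In 22RV1 the furthest was 60 to 70 Mb of chromosome 7, where HCT116 had 0.469 of the share of 22RV1, and the leading ZNF736 region is in it. Of the 22RV1-only regions 56.8% lay in such bins, and 55.7% of the HCT116-only, 51.3% of the shared and 54.0% of all regions, so the line-only sets were not much more common there.

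The promoters were then read for the 11 words. Windows of 300 bases around the start were open only in 22RV1 for 819 of 15811 promoters (5.18%), only in HCT116 for 58 (0.367%) and in all 6 samples for 7191 (45.5%), and the words were searched in the 250 bases before the start. The AP-1 word TGANTCA was in 15 of the 58 HCT116-only promoters (25.9%), in 31 of the 819 22RV1-only ones (3.79%), in 2.66% of those open in all samples, in 8.59% of those open in none and in 5.05% of all. With strict peaks in all 3 samples it was in 4 of 16 HCT116-only (25%) and in 23 of 562 22RV1-only promoters (4.09%). The 4 were TTC39C, NIBAN2, SP140L and SRPX2, the first 2 of which are printed above. The promoters of SP140L and SP100, which also has the word, belong to related genes on chromosome 2. Median GC content was 58.8% in the HCT116-only, 62% in the 22RV1-only and 62.4% in all promoters.

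The HCT116-only promoters with the AP-1 word were often open in A375. At least 2 of 3 A375 DMSO samples had a peak in 14 of the 15 with the word and in 27 of the 43 without it, where 46.6% of all promoters with the word and 63.3% of those without had one. MV411 ran the same way, with 10 of 15 against 18 of 43 (all promoters 40.6% and 60.1%). So did 92-1, with 7 of 15 against 15 of 43 (all promoters 32.1% and 53.9%). RD did too, with 10 of 15 against 25 of 43 (all promoters 39.7% and 65.1%). DU4475 ran the opposite way, with 6 of 15 (40%) against 29 of 43 (67.4%), close to all promoters (39.3% and 62.9%). In the FHT-1015 samples of HCT116 the order was also opposite to that of A375, with 9 of 15 against 40 of 43 (all promoters 33.5% and 57.0%). CPA4 had folds of 9.82, 6.88 and 4.82 in HCT116 and peaks in all 3 A375 samples. ANXA2, an annexin gene with the AP-1 word, had 6.34, 8.01 and 4.66.

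The FOX word TGTTTAC was in 2.08% of the 22RV1-only promoters and 2.26% of all, so it did not stand out there. The CDX word TTTATNG was in 10.3% of the HCT116-only, 7.45% of the 22RV1-only and 7.68% of all promoters. The ETS word CCGGAAG was in 6.11% of the 22RV1-only, 10.3% of the HCT116-only, 19.6% of the promoters open in all samples and 11.8% of all. Promoters open in 1 line therefore held it less often than those open in both. The other words were HOXB13 (CCAATAAA, in 0.765% of all promoters, and overlapping the CDX word on the opposite strand), TEAD (CATTCCA, 2.5%), TCF (ATCAAAG, 1.73%), HNF4 (CAAAGTCCA, 0.259%), GRHL (AACCNGTT, 1.35%), CTCF (AGGGGGC, 16.9%) and the word of the GATA factors (6.84%). In the 22RV1-only promoters CTCF stood at 17.5%, TEAD at 2.20% and the GATA factors at 6.47%. These are matches of letters and not sites of binding, and distal regions were not read, as no genome sequence of the build was used here.

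**Figure D5:**
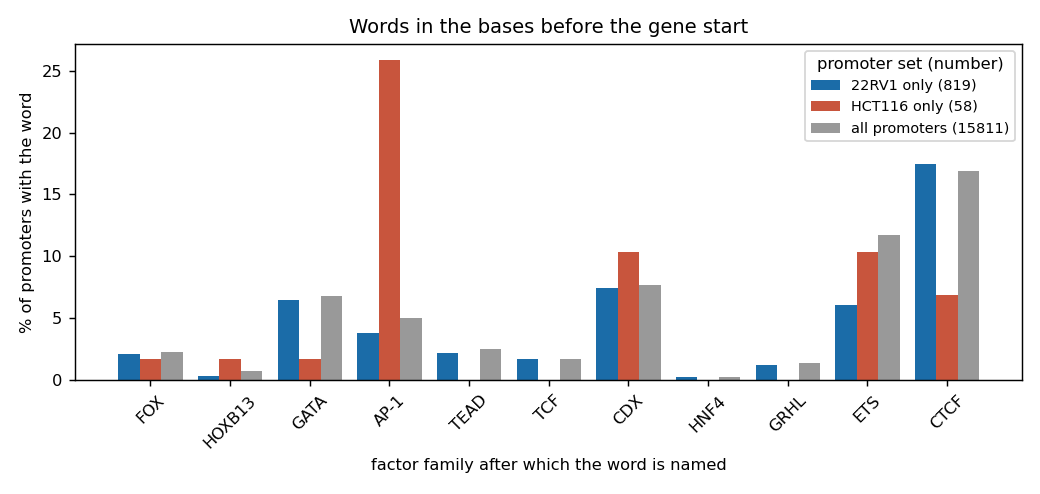
Percent of promoters with a match to each of 11 words in the 250 bases before the start, for promoters open only in 22RV1 (819), only in HCT116 (58) and for all 15811. The AP-1 word is in 25.9% of the HCT116-only promoters and 5.05% of all.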

How the data were processed

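ATAC-seq libraries were made by the original protocol with bead size selection on both sides, per the labels' protocols. Bowtie2, Picard, MACS2, limma, HOMER and the build hg38 are listed in the submitters' processing notes, without parameters, and a shift of reads for the transposase is not mentioned in them. Each sample had its own peak list, so replicates were not pooled. Peak folds, the ratio of pileup to local background, were computed by the authors. The authors gave each p-value and q-value as −log10. Both served here to rank, filter or describe peaks of the same list.

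From the lists on chromosomes 1 to 22 and X, windows of 500 bp were set around summits, strongest percentile first, without overlap. A peak covering at least 100 bp called a window. The background was solved from fold, (P + 1)/(L + 1), and the Poisson tail of pileup P over background L, with a tolerance of 0.01 on −log10 p. For the comparison at equal background, pileups were drawn binomially (seed 1) to 0.5 of the lowest background, keeping those that still reached 5 for −log10 p. No read totals are given, so depth is known only through this background.

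Each region went to its nearest of 19970 RefSeq protein-coding genes (GRCh38.p14, distance 0 inside a gene). The strand and start were known for 15812 genes, and for the other 4158 either end was used. A start was open when a summit lay within 1 kb. Groups came from the labels. Sample values were compared with two-sided exact permutation tests over 3 and 3 samples, and with sign flips over equal replicate numbers, which cannot go below 0.25. Line-only sets were chosen by the calls, so they got no test.

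The genes named were FOXA1 and CDX2, the 10 leading genes by firm regions, the 5 strongest firm regions and those near starts per line, up to 8 members per list, and defining markers at 0. Other names, among them CDH1, FOSL1, SOX9 regions, HCT116 starts and single promoters, were chosen after their values were seen. Members, the 13 gene lists, the 11 words and the rules were chosen with earlier results of these data known. Some genes, counted in the totals of their lists, and some words are not reported here. The scripts were tested on simulated lists. Python 3.11.15, numpy 2.4.6, pandas 2.3.3, scipy 1.17.1 and matplotlib 3.10.9 were used.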

Additional observations from a re-analysis of the deposited data

How the results depend on the processing

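The number of line-only regions depended on most choices about weak peaks, and moved by less than 1.5 times with lists of equal length (21013 for 22RV1 and 4131 for HCT116) and, for HCT116, with pileups scaled to the lowest background (3472). Regions only in 22RV1 went from 30451 to 19721 with strict peaks, 11539 with strict presence and whole-list absence, 13568 with an overlap of 250 bp and 7578 with pileups scaled to the lowest background. For HCT116 the 4004 became 1523, 794 and 1666 under the first 3 of these, and for all 6 samples the 20467 became 9871 with strict peaks, 9648 with 250 bp and 9900 scaled. Chosen after seeing the data, thinning gave 2978, 1284 and 3549, and leaving out 10 Mb bins whose share of peaks did not overlap gave 13145, 1773 and 9971, fewer by construction. Without 1 replicate the counts ran from 33047 to 52769 for 22RV1, the highest without 22RV1 replicate 3, from 4646 to 14571 for HCT116, the highest without HCT116 replicate 1, and from 20978 to 24129 for all 6. Fewer samples make the rule easier to meet. The median difference per gene was 0 and became 1 without any 22RV1 replicate. The near-start share of the line-only regions was 9.96% and 7.69% within 2.5 kb and 19.9% and 15.7% at equal background. The log2 difference in peaks was 0.56 and changed sign to −0.13 at equal background. The difference in near-start share of peaks, 22RV1 minus HCT116, was −0.25 points and ran from −1.38 to 1.5 without 1 replicate, positive at 0.18 without 22RV1 replicate 1 and at 1.5 without HCT116 replicate 1. The difference in median width was −10.3 bp and 89.7 bp for the 10000 strongest peaks. Within 25 kb in place of the nearest gene, 15.9% of all genes had an HCT116-only region. List genes with one became 1 of 13 for the liver and gut, 5 of 12 for the AP-1, 2 of 7 for the melanocyte and 1 of 8 for the skeletal muscle list. In each case the cause was not tested unless named. With the replicate number as a block, exact sign-flip permutation tests gave p = 0.25 for peaks (0.56), width (−10.3 bp) and the FHT-1015 shares (32.8 and −35.4 points), and 1 for the near-start share (−0.25 points). The numbers pair the samples only by name, and the block changed no call.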
